A study of Homo sapiens with 14 samples.

Results

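Broad DRIP-seq peaks were taken as the peaks of at least 2000 bp on chromosomes 1 to 22 and X in the 8 peak lists of Nalm-6, a human leukemic B cell line. They numbered 2838 of 1315747 peaks, and they were chosen by width alone. DRIP-seq pulls down DNA that carries an RNA:DNA hybrid with the S9.6 antibody and sequences it. The cells were isogenic lines with SF3B1 K700K (WT) or SF3B1 K700E (MT), and both came to the assay without crosslinking. DNA of all groups was cut with HindIII, EcoRI, BsrGI, XbaI and SspI before the pull-down. Of each genotype there were 2 libraries from untreated DNA and 2 from DNA digested with RNase H (RNH1). Each library has a peak list of its own, and the labels do not say whether replicates came from separate cultures, so p-values measure only the spread between these libraries.

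An R-loop forms when a transcript pairs with its template strand and displaces the other DNA strand. RNase H cuts the RNA of such hybrids, so a hybrid-dependent peak should be lost or weakened in the RNH1 libraries. In hybrid mapping on restriction-digested DNA, the unit that is pulled down is the whole restriction fragment. The tandem satellites near human centromeres include families built from a short GGAAT unit, and copies of such repeats cannot always be told apart by short reads.

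The broad peaks fell into 3 sequence classes. A peak was called satellite word-rich when at least 10% of its bases lay in GGAAT or ATTCC, the same word on either strand. The rest were called multi-copy when at least 50% of their 32-base words occurred more than once in the reference, and mostly single-copy otherwise. In the whole genome 1.12% of bases lie in these words. The 5 windows of 200 bases around peak summits in untreated WT libraries show the first class, with the words in capitals (GRCh38, plus strand). They are the longest region at chr4:49091318-49112744, other regions of chromosomes 2 and 5 that were broad in every library, and the regions of chromosomes 16 and 10 with the highest fold enrichment.
chr4:49092731-49092930: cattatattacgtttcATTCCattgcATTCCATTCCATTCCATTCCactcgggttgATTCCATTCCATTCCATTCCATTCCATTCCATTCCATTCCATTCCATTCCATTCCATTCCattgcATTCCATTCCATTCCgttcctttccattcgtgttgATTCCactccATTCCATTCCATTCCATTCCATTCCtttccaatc
chr2:89830917-89831116: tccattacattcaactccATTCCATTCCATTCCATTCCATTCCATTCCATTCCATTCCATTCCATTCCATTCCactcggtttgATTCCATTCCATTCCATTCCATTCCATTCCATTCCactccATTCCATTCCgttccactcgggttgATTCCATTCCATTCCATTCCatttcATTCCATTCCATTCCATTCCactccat
chr5:49658593-49658792: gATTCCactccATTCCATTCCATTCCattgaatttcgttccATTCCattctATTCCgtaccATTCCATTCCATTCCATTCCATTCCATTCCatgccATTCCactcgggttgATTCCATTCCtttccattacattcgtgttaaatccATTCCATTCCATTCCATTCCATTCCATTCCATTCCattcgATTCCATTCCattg
chr10:41859834-41860033: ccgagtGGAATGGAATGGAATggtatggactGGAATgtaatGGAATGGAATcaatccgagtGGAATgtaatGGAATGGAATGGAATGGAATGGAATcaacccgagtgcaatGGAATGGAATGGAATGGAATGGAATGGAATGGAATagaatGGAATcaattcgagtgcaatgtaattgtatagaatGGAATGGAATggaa
chr16:34588116-34588315: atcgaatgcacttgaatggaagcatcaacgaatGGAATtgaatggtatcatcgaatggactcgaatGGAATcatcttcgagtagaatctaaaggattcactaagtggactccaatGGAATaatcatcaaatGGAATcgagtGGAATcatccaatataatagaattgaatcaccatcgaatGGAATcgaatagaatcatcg
The words filled from 55.0% to 70.0% of the windows on chromosomes 4, 2, 5 and 10. The chromosome 16 window held them in 15.0% of its bases, spaced by diverged copies such as gaatc and gaatt.

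A second set of windows shows where broad peaks of single-copy DNA began and ended. Each window of 60 bases is centred on the restriction site nearest to a peak end, with the site in capitals. The sites are BsrGI at the left end in LANCL2, XbaI at the left and SspI at the right end in TENM2, and HindIII at the left and SspI at the right end in SLC9A5. They were picked after their values were seen, to show ends shared by several libraries.
LANCL2 left, chr7:55381521-55381580: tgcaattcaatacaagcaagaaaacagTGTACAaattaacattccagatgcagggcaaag
TENM2 left, chr5:167283420-167283479: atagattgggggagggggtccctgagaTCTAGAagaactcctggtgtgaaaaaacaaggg
TENM2 right, chr5:167285554-167285613: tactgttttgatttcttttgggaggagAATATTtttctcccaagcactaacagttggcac
SLC9A5 left, chr16:67264124-67264183: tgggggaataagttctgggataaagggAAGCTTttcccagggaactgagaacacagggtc
SLC9A5 right, chr16:67266361-67266420: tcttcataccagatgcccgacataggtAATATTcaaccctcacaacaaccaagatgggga

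Broad peaks were rare in every list and more numerous in MT than in WT lists, with and without RNH1. Untreated WT 1 and 2 held 177 and 246 broad peaks of 123582 and 130928, and untreated MT 1 and 2 held 436 and 696 of 253744 and 295970. RNH1-treated WT had 86 and 180 of 34857 and 77391, and RNH1-treated MT 593 and 424 of 201117 and 198158. Each untreated MT library exceeded each WT library, at 566 ± 184 against 211.5 ± 48.8 (mean ± SD, n = 2), and the ratio of geometric means was 2.64. The two-sided exact permutation test gave p = 0.333, the smallest that 2 libraries against 2 allow, so no such comparison can reach 0.05. With RNH1 the counts were 508.5 ± 120 in MT and 133 ± 66.5 in WT, a ratio of 4.03, and the groups again did not overlap (exact permutation p = 0.333). Both ratios were smaller for the widest peaks: at a minimum width of 3000 bp the log2 ratio was 0.430 instead of 1.40 without RNH1 and also 0.430 instead of 2.01 with it.

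As a share of their list, broad peaks did not separate the genotypes. They made up 0.143% and 0.188% of the untreated WT peaks and 0.172% and 0.235% of the untreated MT peaks. The difference of 0.0379 percentage points was within the overlap of the libraries (two-sided exact permutation test, p = 0.667), and it changed sign with a minimum width of 3000 bp. The lists give no read totals. As a stand-in for depth, the background pileup was computed from fold enrichment and −log10 p, in reads. Without RNH1 it came to 2.99 and 3.13 for WT and to 3.51 and 4.35 for MT, and with RNH1 to 1.62 and 2.17 for WT and to 2.76 and 2.55 for MT. It was higher in both untreated MT libraries than in both WT libraries, and its part in the counts was not tested.

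**Figure D1:**
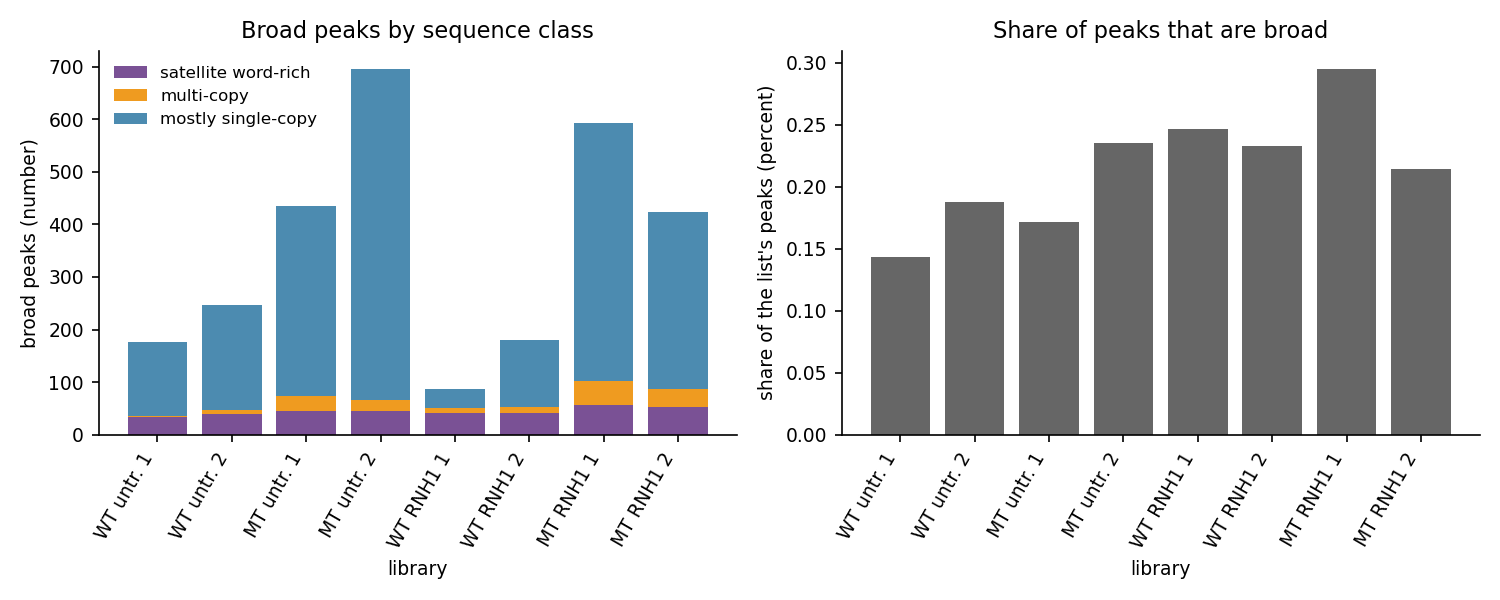
Number of broad peaks in each library, stacked by sequence class (left), and broad peaks as a percent of all peaks of the list (right); each bar is 1 library. Counts run from 86 to 696, and the satellite word-rich part from 34 to 56, while the shares of WT and MT overlap.

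Most broad peaks were only just broad. Their median width was between 2172.5 and 2184 bp in the untreated libraries, and between 2177.5 and 2503 bp in the RNH1 libraries, against 381 to 449 bp over all peaks of a list. At least 3000 bp was reached by 23 and 25 peaks of WT and 29 and 36 of MT without RNH1, and by 26 and 31 of WT and 43 and 34 of MT with RNH1. Within the first 100 bp above the limit, the untreated libraries held 49, 82, 137 and 212 peaks with median fold enrichments of 5.10 to 5.53. In the 100 bp just below it, they held 94, 122, 204 and 339 peaks with medians of 4.92 to 5.53. The median fold enrichment of all broad peaks was 5.63 and 5.65 in untreated WT and 5.10 and 5.02 in untreated MT libraries, against 4.30 to 4.39 for narrower peaks.

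The satellite class was small and wide, and its size varied less between libraries than that of the other classes. Without RNH1 it held 34 and 39 broad peaks of WT and 44 and 44 of MT, and with RNH1 41 and 41 of WT and 56 and 52 of MT. Its median width lay between 3012 and 3365 bp, and between 51.3% and 61.8% of its peaks were at least 3000 bp wide. Its median fold enrichment was 7.22 to 10.3. Mostly single-copy peaks, in contrast, numbered 141 and 200 in untreated WT and 363 and 631 in untreated MT libraries. Their median width was 2142 to 2159 bp in those 4 libraries, and no more than 2.50% of them reached 3000 bp. Multi-copy peaks numbered 2 and 7 in untreated WT and 29 and 21 in untreated MT libraries.

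The longest peak of every list lay in the same satellite region of chromosome 4. It measured 9831 bp in untreated WT 1 and 13495 bp in untreated WT 2. The other 6 lists had it as a single peak of 21089 to 21377 bp, RNH1-treated libraries included. Its summit fold enrichment lay between 9.63 and 13.3 in the 8 lists. The reference sequence of these peaks held the words in 55.2% to 55.8% of bases and from 7 to 11 restriction sites, so these peaks ran across cut sites.

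The 5 regions with the highest mean fold enrichment among those broad in all 8 lists were all satellite word-rich and intergenic. The strongest, at chr16:34585673-34588625, had fold enrichments of 24.2 and 24.8 for WT and 19.8 and 19.1 for MT without RNH1, and of 25.4 and 21.7 for WT with it. RNH1-treated MT 2 had 19.9, and RNH1-treated MT 1 also lay below both RNH1-treated WT libraries. WT libraries were thus higher than MT libraries with and without RNH1. At chr10:41858343-41862124 the untreated values were 19.1, 19.6, 17.8 and 17.7 in the same order, and the RNH1 values 22.8, 18.3, 18.0 and 18.2. The other 3, on chromosomes 16 and 4, had mean fold enrichments of 18.3, 17.5 and 15.6 over the untreated libraries. Reads from such repeats can be placed on any of several copies, so a value belongs to the family more surely than to the position.

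Few places were broad in every untreated library. Merging the untreated broad peaks gave 1107 regions, of which 771 were broad in 1 library, 271 in 2, 22 in 3 and 43 in all 4. Of those 43 regions, 30 were satellite word-rich, 1 multi-copy and 12 mostly single-copy. They lay on 14 chromosomes, with 10 on chromosome 4 and 9 on chromosome 10. Over all 8 libraries, 30 regions were broad throughout, and 29 of them were satellite word-rich and none mostly single-copy.

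Outside the satellites, a broad peak of an untreated library was often met by narrower peaks in another. Where untreated WT 1 had such a peak, WT 2 had a broad peak in 55.9%, 1 narrower peak in 21.7% and several narrower peaks in 22.4% of cases, and never none. The same peaks were broad in 15.4% and 17.5% of cases in the MT libraries, and absent in 8.39% and 4.20%. For broad peaks of MT 1, the MT 2 list held a broad peak in 53.6% of cases, and the WT lists in 5.61% and 6.89%. No peak at all was found in WT for 37.8% and 29.6% of the MT 1 peaks and for 38.5% and 33.7% of the MT 2 peaks. The untreated WT lists also held far fewer peaks of any width than the MT lists, and the part of this in the shares was not tested.

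**Figure D2:**
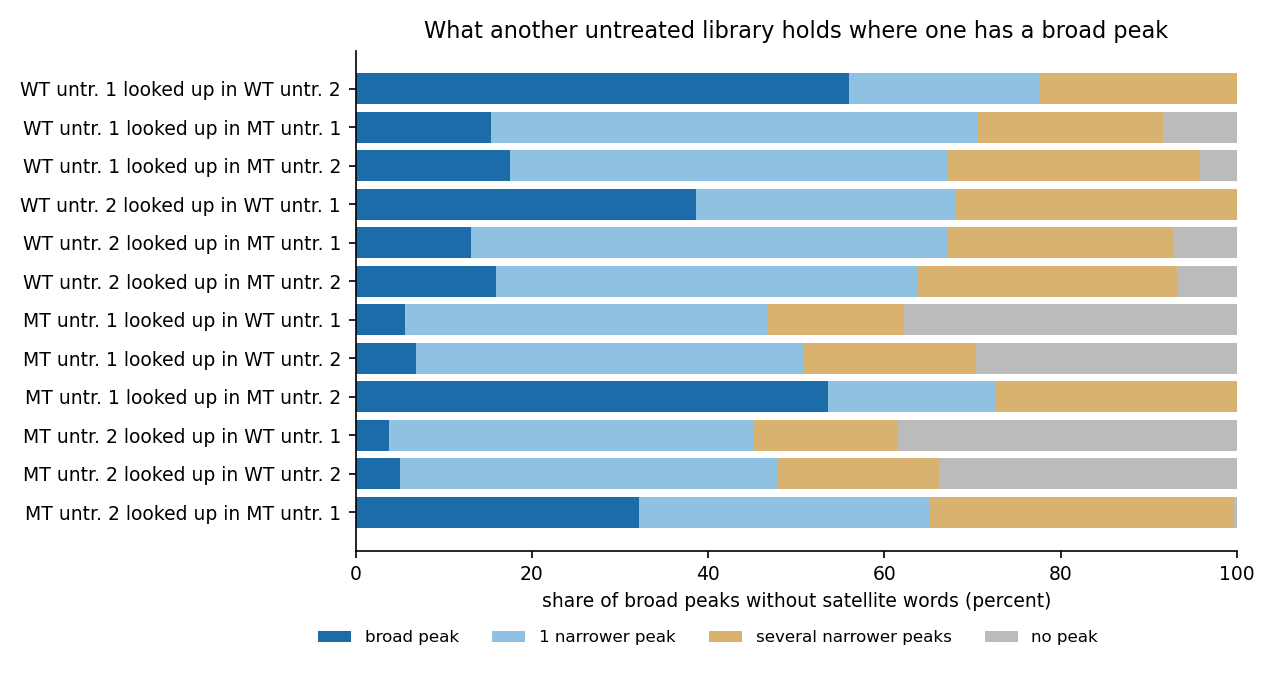
Broad peaks without satellite words of each untreated library, by what another untreated library holds at the same place, as a percent of the broad peaks of the first library. Libraries of 1 genotype share a broad peak in 32.2% to 55.9% of cases, and libraries of different genotypes in 3.83% to 17.5%.

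Regions broad in both libraries of a genotype and without a peak in the other were more numerous for MT. There were 33 such regions in MT and 2 in WT, out of 249 regions broad in both MT and 110 broad in both WT libraries. The untreated WT lists held 123582 and 130928 peaks of any width, against 253744 and 295970 in MT. The same count was not made for narrower peaks, so the imbalance is not shown to be particular to broad peaks. Of the 33, 31 also held a peak in an RNH1-treated MT library and 7 in an RNH1-treated WT library, and 1 was satellite word-rich. The strongest by mean fold enrichment was that satellite region, at chr1:143248128-143250807, with 14.0 and 9.72 in MT. Next came chr8:136988268-136990340, in the noncoding gene LINC02055, with 7.64 and 9.96. A region at chr1:94744367-94746410 in SLC44A3-AS1 measured 2044 bp in both MT libraries, and only 472 and 370 bp in the RNH1-treated MT libraries. Intergenic regions of chromosomes 2 and 6 followed, with mean fold enrichments of 6.58 and 6.56.

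The reverse pair was small. The region at chr15:22268073-22270480 was 2408 bp wide in both untreated WT libraries and in RNH1-treated WT 2. The widest peak there was 417 bp in RNH1-treated WT 1 and 433 bp in RNH1-treated MT 1. The region at chr17:34361300-34363717 lay over the start of CCL1, a chemokine gene, with 2411 and 2287 bp and fold enrichments of 4.15 and 3.89 in WT. RNH1-treated WT 2 kept it at 2776 bp. Neither region had a peak in the untreated MT libraries.

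Broad peaks were met again in the RNH1 list of the same genotype and replicate number more often than narrower peaks. In WT, 109 of 177 (61.6%) and 219 of 246 (89.0%) broad peaks shared a base with an RNH1 peak, and in MT 390 of 436 (89.4%) and 615 of 696 (88.4%). Narrower peaks did so in 18.0% and 34.1% of WT and in 50.9% and 48.7% of MT cases. A wide interval meets another peak more easily, so the summit, a single base in either class, was compared as well. It lay inside an RNH1 peak for 52.5%, 80.1%, 81.9% and 78.4% of broad peaks, and for 16.2%, 31.3%, 48.3% and 46.2% of narrower peaks. The excess of 37.7 ± 7.56 percentage points (SD, n = 4 libraries) was positive in 4 of 4 libraries. The two-sided exact sign-flip permutation test gave p = 0.125, the smallest that 4 libraries allow. Broad peaks also had the higher fold enrichment, as given above, and the part of fold enrichment in this difference was not tested.

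By class, satellite word-rich broad peaks were met again in 100% of cases in both WT libraries and in MT 1, and in 97.7% in MT 2. Mostly single-copy broad peaks were met again in 52.5% and 86.5% of cases in WT and 87.3% and 87.3% in MT. A broad peak usually did not stay broad: 45, 80, 155 and 161 of the untreated broad peaks, in the order WT 1, WT 2, MT 1 and MT 2, met a broad RNH1 peak. Another 64, 139, 235 and 454 met only narrower RNH1 peaks. For single-copy peaks the broad partners were 11 of 141, 42 of 200, 94 of 363 and 106 of 631, and for satellite peaks 33 of 34, 34 of 39, 40 of 44 and 39 of 44.

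Broad peaks with no RNH1 peak numbered 68 and 27 in WT and 46 and 81 in MT. They had a median GC content of 42.4% and 44.1% (WT) and of 48.1% and 47.1% (MT), higher in every library than that of the peaks met again, at 40.8%, 40.8%, 43.8% and 43.3%. Their median fold enrichment was lower than that of all broad peaks of their library, at 5.10, 5.08, 4.78 and 4.60.

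**Figure D3:**
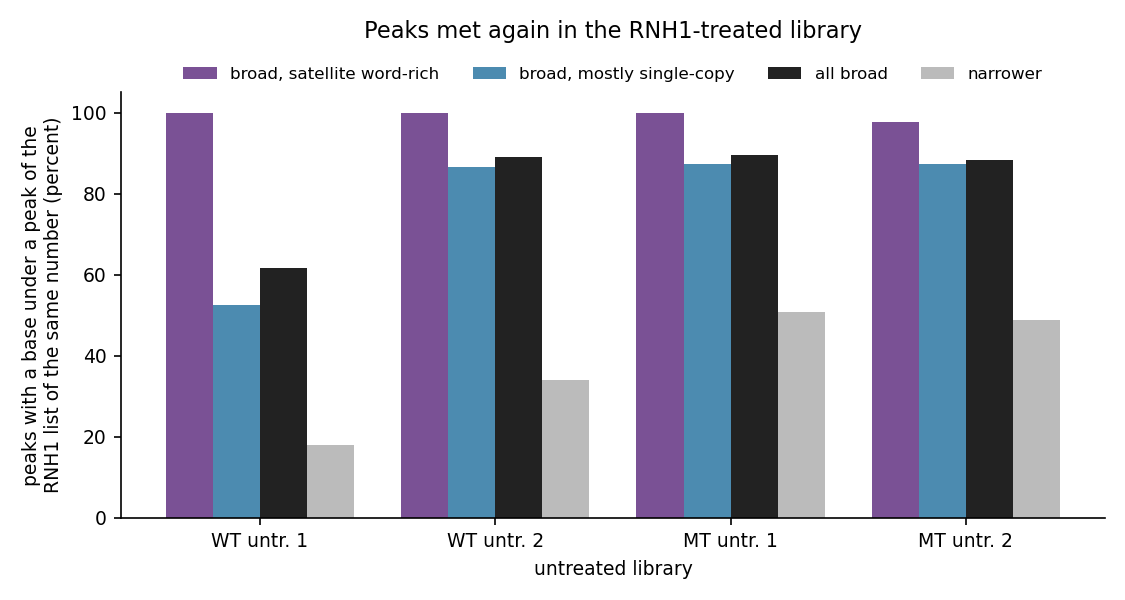
Percent of untreated peaks with at least 1 base under a peak of the same-numbered RNH1 list of their genotype, by class of peak. Broad peaks reach 61.6% to 89.4% and narrower peaks 18.0% to 50.9%, with the lowest bars of every class except the satellite class in untreated WT 1.

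Taken over all broad peaks, the genotypes overlapped in this share. It was 75.3% ± 19.4 in WT and 88.9% ± 0.769 in MT (SD, n = 2), a difference of 13.6 percentage points (two-sided exact permutation test, p = 0.667). The difference rested on WT 1, whose RNH1 list holds only 34857 peaks: without that pair it was −0.12 percentage points. When the RNH1 peak also had to be broad, the difference was 0.369 percentage points. The genotypes did not overlap without satellite word-rich peaks (18.3 points), at a minimum width of 1500 bp (21.1 points), with the RNH1 list of the other number (12.04 points) or with at least 50% of the bases covered (15.2 points), each with an exact permutation p of 0.333, the smallest possible.

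The number of broad peaks with and without RNH1 overlapped in both genotypes. In WT the count went from 177 to 86 and from 246 to 180 in the replicates of the same number, a ratio of geometric means of 0.596 (two-sided exact permutation test, p = 0.667). In MT it went from 436 to 593 and from 696 to 424, a ratio of 0.910 (exact p = 0.667), and this ratio rose above 1 without untreated MT 2 or without RNH1-treated MT 2, at log2 ratios of 0.20 and 0.11. In WT the groups no longer overlapped without satellite word-rich peaks (log2 ratio −1.12) or at a minimum width of 1500 bp (−1.44), each with the smallest exact permutation p of 0.333, and at 3000 bp the log2 ratio was above 0, at 0.244. By class, single-copy broad peaks went from 141 to 35 and from 200 to 127 in WT, and from 363 to 492 and from 631 to 338 in MT. Satellite broad peaks were more numerous with RNH1 in all 4 pairs, rising from 34 to 41 and from 39 to 41 in WT and from 44 to 56 and from 44 to 52 in MT, counts that were not tested. Conversely, of the broad peaks of the RNH1 lists 94.2% and 97.8% in WT and 97.5% and 97.4% in MT shared a base with an untreated peak, which was itself broad for 41 of 86, 79 of 180, 155 of 593 and 161 of 424.

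The 12 single-copy regions broad in all 4 untreated libraries showed the range of responses. A region in an intron of LANCL2, a LanC-like protein, was 2659 bp wide in untreated WT 1 and 2685 bp in the other untreated libraries. It kept 2685 bp in both RNH1-treated MT libraries and 2659 bp in RNH1-treated WT 2, and measured 1815 bp in RNH1-treated WT 1. The region in an intron of TENM2, which encodes a teneurin of the cell surface, was exactly 2129 bp wide in all 4 untreated libraries, with fold enrichments of 7.93, 7.66, 6.39 and 6.52. It had no peak in 3 RNH1 lists and a peak of 559 bp in RNH1-treated MT 1. CDK20, a gene of the cyclin-dependent kinase family, had a broad peak at its 3′ end of 2155, 2045, 2053 and 2155 bp, and among the RNH1 lists only WT 2 had peaks there, the wider of 402 bp. MAST2, which encodes a microtubule-associated kinase, had a broad intronic peak of 2321 to 2657 bp, and RNH1 peaks of 814, 1343 and 1276 bp in 3 of the 4 RNH1 lists.

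A region in KAZN, which encodes a protein of cell junctions, had RNH1 peaks in WT only, of 873 and 1905 bp. Regions in COL24A1, a collagen gene, in MAP4K5, a kinase gene, and in CLPB, which encodes a mitochondrial disaggregase, had peaks in all 4 RNH1 lists. Their RNH1 widths ran from 1381 to 2074 bp, from 1327 to 2131 bp and from 1064 to 2472 bp. The region within the noncoding gene HULC was wider with RNH1 in WT, at 2663 and 2588 bp against 2241 and 2177 bp, and narrower in MT, at 1965 and 2091 bp against 2185 and 2148 bp. The intergenic regions on chromosomes 10 and 6 also had a peak in every RNH1 list, and the one on chromosome 1 only a peak of 453 bp in MT 1. No region that was broad in all 4 untreated libraries lacked a peak in every RNH1 list.

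**Figure D4:**
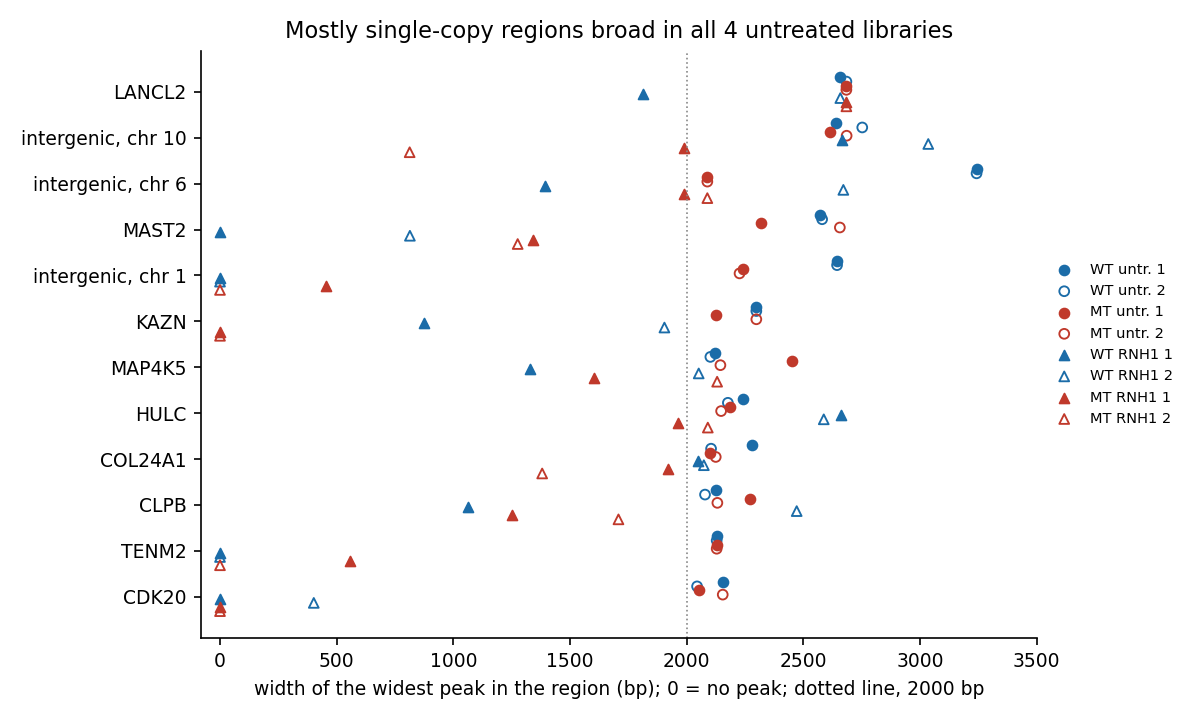
Width of the widest peak in each of the 12 mostly single-copy regions broad in all 4 untreated libraries, in bp, with circles for untreated and triangles for RNH1-treated libraries. All circles lie beyond 2000 bp by the choice of regions, and triangles run from 0 (no peak) to 3036 bp.

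Broad peaks were richer in G and C than narrower peaks. Their mean GC content was 41.3% and 41.4% in untreated WT and 44.9% and 44.4% in untreated MT, against 37.5% to 41.9% for narrower peaks of these libraries. In RNH1-treated DNA it was 41.6%, 41.9%, 43.8% and 43.5%, against 38.6%, 39.6%, 41.0% and 40.9%. The excess was 2.99 ± 0.472 percentage points (SD, n = 8 libraries), was positive in 8 of 8 libraries, and exceeded the spread between them (two-sided exact sign-flip permutation test, p = 0.00781, the smallest that 8 libraries allow). Libraries share many of their peaks and are not fully independent. The sites of all the enzymes used hold more A and T than G and C. In every library the median restriction fragment was longer under broad than under narrower peaks, as given below. The choice by width may therefore build in part of the GC difference. The sign-flip test does not separate that part, and the part of fragment length was not tested. The reference genome has a GC content of 40.9%.

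Broad peaks without a cut site inside must lie on a fragment of about their own width or more, so fragment length in part restates the choice by width and is given as a description. The 5 enzymes have 1.97 sites per kb in the reference and a median fragment of 318 bp, and 165012 fragments, 2.88% of the total, reach 2000 bp. The median fragment under the summit of a broad peak was 2491.5 to 2779.5 bp, and under a narrower peak 1099 to 1311 bp. Of the broad peaks, 52.3% to 79.4% held no site at all. Those filled a median of 77.9% to 87.4% of their fragment. Narrower peaks without a site filled 37.6% to 44.9%, a contrast that the choice by width builds in. Most long fragments held no broad peak: 0.0491% to 0.382% of the fragments of at least 2000 bp held one in a given library, and 3.55% to 31.6% held any peak.

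Sites were denser in broad peaks than in narrower ones, by 0.132 ± 0.0660 per kb (SD, n = 8 libraries). The difference was positive in 8 of 8 libraries (two-sided exact sign-flip permutation test, p = 0.00781). A peak of at least 2000 bp must lie on a rare long fragment or run across a site, and most narrower peaks hold no site. The choice by width therefore builds in part of this difference, and the test does not separate that part. Means were 0.145 to 0.324 sites per kb in broad and 0.0323 to 0.0828 in narrower peaks, far below the genome in both. Satellite peaks contributed, since 64.3% to 71.8% of them held a site, against 5.51% to 19.97% of mostly single-copy peaks. Without satellite word-rich peaks the difference was 0.0849 per kb (exact p = 0.00781).

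Many ends of broad and of narrower peaks lay at restriction sites. Within 50 bp of a site were 39.5% and 43.1% of the ends of untreated WT broad peaks and 31.3% and 35.1% of those of MT. With RNH1 these were 20.9% and 33.9% for WT and 33.8% and 34.2% for MT. For narrower peaks the share was 29.2% to 33.8%. The difference of 2.54 ± 6.31 percentage points (SD, n = 8) was positive in 7 of 8 libraries and did not pass the exact sign-flip permutation test (two-sided p = 0.297). The only negative value was that of RNH1-treated WT 1, at −11.9 points. Satellite peaks made up 47.7% of its broad peaks, and their part in this value was not tested. Without that library the difference was 4.61 points (exact sign-flip permutation p = 0.0156). The direction depended on which peaks were counted. Without satellite word-rich peaks the difference was 8.09 points and positive in 8 of 8 libraries, and at a minimum width of 1500 bp it was 6.63 points (exact permutation p = 0.00781 for both). At a minimum width of 3000 bp it passed in the opposite direction, at −16.1 points (exact permutation p = 0.00781), and it was −0.498 points at a fold enrichment of at least 4 and −0.825 points at a −log10 q of at least 5. Satellite broad peaks had 6.10% to 10.98% of their ends at a site, and other broad peaks 33.7% to 49.8%. Broad peaks without a site inside filled more of their fragment than narrower ones, as given above. That leaves less room between their ends and the sites, so the choice by width may build in part of the difference. The sign-flip test does not separate that part.

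**Figure D5:**
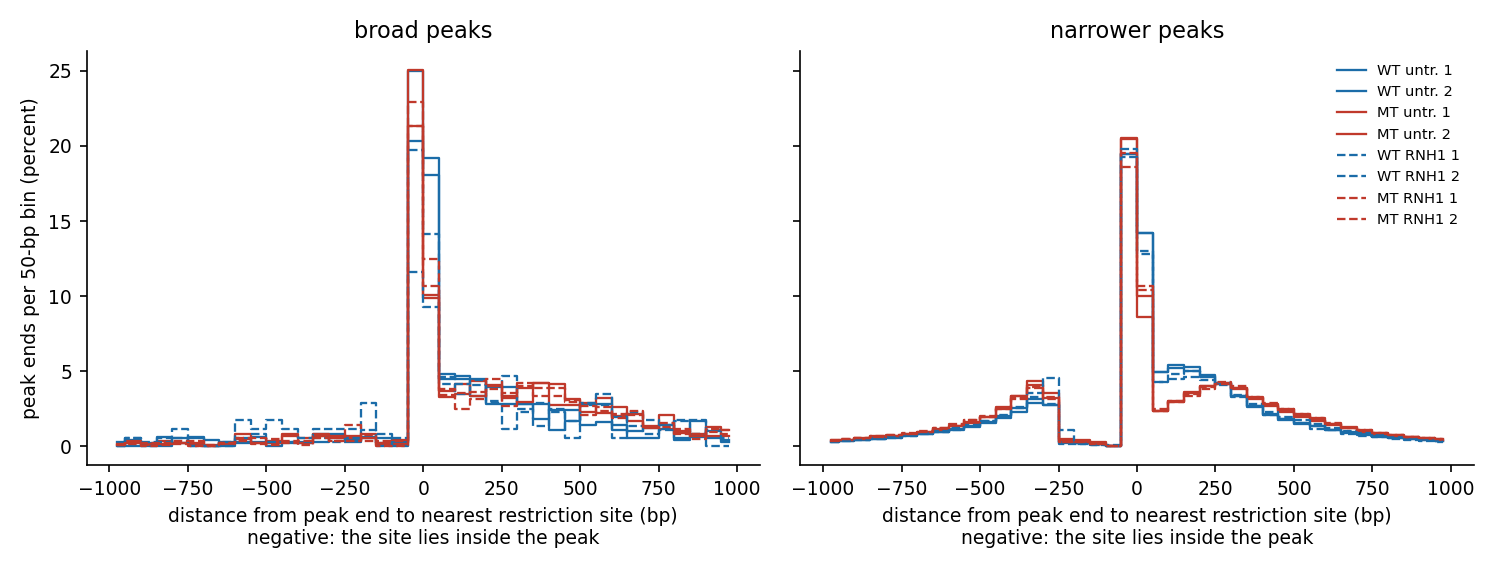
Distance from each peak end to the nearest site of the 5 enzymes, in 50-bp bins, for broad (left) and narrower peaks (right), as a percent of ends; solid lines are untreated and dashed lines RNH1-treated libraries, blue WT and red MT. Both classes have their highest bins beside 0, and narrower peaks have a second, lower rise more than 250 bp to the negative side. A negative distance means that the nearest site lies on the inner side of the end, also where it lies past the other end. Of narrower peaks, 95.4% to 98.5% held no site inside.

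Where they met as broad peaks in separate libraries, broad peaks often had the same 2 ends. Among broad peaks without satellite words that met in untreated WT 1 and WT 2, 36 of 80 pairs (45.0%) had both ends within 10 bp of each other, and in MT 1 and MT 2 68 of 210 (32.4%). Across genotypes the share was 27.3% to 40.7% of 22 to 33 pairs. For narrower peaks it was 23.3% within WT, 17.1% within MT, and 8.01% to 8.35% across genotypes. Satellite peaks shared both ends in 12.1% to 20.5% of pairs. Both peaks of a broad pair reach 2000 bp by choice, and most broad peaks held no site inside. That leaves their ends less room to differ, so the choice by width may build in part of the contrast with narrower peaks. This part was not tested.

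The end windows shown above hold ends shared by several libraries. The TENM2 peak ran from chr5:167283455 to 167285583 in all 4 untreated libraries, and lay between an XbaI and an SspI site that are 2134 bp apart. Its ends were 5 and 0 bp from the middle of the sites. The LANCL2 peak began 2 bp from the middle of a BsrGI site in all 8 libraries, and stopped 563 or 589 bp short of the EcoRI site that closes the fragment. An intergenic peak of chromosome 6 filled the 3249 bp between an SspI and a HindIII site in both untreated WT libraries, at 3243 bp. In untreated MT the same place had peaks of 2089 bp, short of both sites.

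SLC9A5, a sodium/hydrogen exchanger gene among the loci the study examined by DRIP-qPCR, also differed between genotypes, here with the wider peak in MT. Both untreated MT libraries had a peak of 2239 bp at chr16:67264152-67266390, in an intron, with fold enrichments of 6.54 and 7.54. It ran from a HindIII to an SspI site. Untreated WT 2 had 2 peaks on this fragment, of 271 and 275 bp, that began at the same left end and stopped at the same right end, with fold enrichments of 3.54 and 3.15. Untreated WT 1 had no peak on the fragment, the RNH1-treated WT lists had none in or near the gene, and the RNH1-treated MT peaks lay left of it, the nearest ending at chr16:67264155, just past the HindIII site. Of the 8 DRIP-qPCR genes this was the only one with a broad peak in any library within 5000 bp, with DDX10 next at a widest peak of 1902 bp.

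Of the genome, 38.5% is intergenic, 40.3% intron of protein-coding genes and 1.26% within 1000 bp of a protein-coding start site. In the untreated libraries their summits were intergenic in 38.9% to 48.0% and in introns of protein-coding genes in 34.6% to 39.5% of cases, and 1.13%, 0.407%, 1.61% and 1.72% lay within 1000 bp of a protein-coding start site. Of narrower peaks 0.494% to 0.688% did. The difference over 8 libraries was 0.314 ± 0.704 percentage points (SD), positive in 5 of 8 (two-sided exact sign-flip permutation test, p = 0.266). Intergenic placement of the WT broad peaks fell to 32.9% and 38.2% once satellite peaks were left out, against 38.4% and 38.4% for narrower peaks.

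Start sites under broad peaks numbered 2 and 4 in untreated WT and 11 and 18 in untreated MT, of 19970 protein-coding genes, against 126, 173, 568 and 536 under narrower peaks. GC skew, the excess of G over C on the coding strand that favours R-loops downstream of starts, was measured over 1000 bp. Its mean was 0.0901, 0.209, 0.0754 and 0.0859 for start sites under broad peaks, 0.0653, 0.0578, 0.0519 and 0.0613 under narrower peaks, and 0.0395 to 0.0400 where there was no peak. The difference between broad and narrower of 0.0560 ± 0.0634 (SD, n = 4) was positive in 4 of 4 libraries (two-sided exact sign-flip permutation test, p = 0.125, the smallest possible). In WT it rests on 2 and 4 start sites, and it was 0.0243 without untreated WT 2.

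In any of the untreated libraries, 535 protein-coding genes had a broad peak in the body, 2.68% of 19970, and 47 had one within 1000 bp of the start site, 0.235%. No gene had its start site under or within 1000 bp of a broad peak in all 4. Starts near a broad peak in both MT and neither WT library were those of DMRTA2, which encodes a transcription factor, ZNF215, a zinc finger gene, and DEFB135, a defensin gene. The reverse held for CCL1, for APOL5, an apolipoprotein L gene, for AUNIP, which encodes a partner of Aurora kinase A, and for MEP1B, which encodes a subunit of the protease meprin.

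The 10 genes with the most bases under broad peaks were mostly long. KAZN came first with 4489 and 2299 bp in untreated WT and 2125 and 4411 bp in untreated MT, over 1225 kb of gene. COL24A1 had 2282, 2105, 4163 and 4287 bp, and AGBL1, which encodes a carboxypeptidase, 2522, 2626, 2778 and 4883 bp. AGBL1 was the only one of the 10 with a broad peak in all 4 RNH1 lists, at 2718, 2610, 2701 and 2772 bp. LANCL2, MAST2, MAP4K5, CLPB and TENM2 followed with means of 2678.5, 2532.5, 2205, 2152 and 2129 bp. KALRN had broad peaks in MT only, with 2779 and 5673 bp and none in the WT libraries or in any RNH1 list. CDK20 closed the list with 2102 bp, although the gene spans only 8.31 kb.

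Gene lists were counted for broad peaks in any untreated library, beside the 2.68% of all protein-coding genes, and no test was made. Replication-dependent histone genes (69), chromosome 19 ZNF genes (246) and immediate early genes (16) had none in the body, although ZNF285 and ZNF91 had broad peaks in RNH1 lists. The median gene length of these lists was 0.503, 25.9 and 4.31 kb in that order, against 27.5 kb over all protein-coding genes. The part of length and of list size in these counts was not tested. Cytosolic ribosomal protein genes had 1 of 84 (RPS15) and HOX cluster genes 1 of 39 (HOXC6). Olfactory receptor genes, with a median length of 2.38 kb, had 6 of 415 (1.45%). Of those, 3 had the broad peak within 1000 bp of the start site, namely OR4F6, OR51I1 and OR7D2, each in 1 untreated library. That is 0.723% of the list against 0.235% of all genes. A peak of any width lay as near to the start in 36.6% of the list and in 17.3% of all genes. B-lineage genes had 3 of 30, namely BACH2, LEF1 and RUNX1, which encode transcription factors of lymphoid cells. Each was in 1 untreated library only, RUNX1 in MT 1 and BACH2 and LEF1 in MT 2. With RNH1, RUNX1 had a broad peak in both MT lists, and BCL11A and SPI1 in MT 1. The B-lineage genes have a median length of 80.1 kb, against 27.5 kb over all protein-coding genes. The untreated MT lists placed broad peaks in 202 and 327 protein-coding genes, against 82 and 108 in WT.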

How the data were processed

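DRIP-seq was carried out on non-crosslinked Nalm-6 DNA, 2 libraries per genotype and treatment. According to the study's methods, reads were aligned to GRCh38 with BWA-MEM, and mitochondrial and duplicate reads were removed. MACS2 called narrow peaks at a stated q of 0.05. For its analyses the study used bona fide R-loop peaks, defined by comparison with RNH1-treated samples. The lists used here are those of single libraries, without that step. No deposited peak had a q-value above 0.01. How reads that map to several places were handled is not given in the sources used here. The deposited MACS2 columns give fold enrichment over the local background (a ratio), −log10 p, −log10 q and a display score that was not used. The lists hold no read counts, so depth was judged from the background pileup that fold enrichment and −log10 p imply. The splicing table of 6 HEK293T samples was not used.

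Peaks on chromosomes 1 to 22 and X with end minus start of at least 2000 bp were kept as broad. Sequence, restriction sites and fragments came from the GRCh38 reference, and genes from GENCODE 44. Untreated broad peaks sharing a base were merged into regions. A peak persisted when it shared a base with a peak of the RNH1 list of its genotype and replicate number. Comparisons of groups used an exact permutation test over libraries (two-sided), and broad with narrower peaks by exact sign-flip tests of the differences per library, in Python 3.11.15 with numpy 2.4.6, pandas 2.3.3 and scipy 1.17.1. The scripts were tested on simulated data.

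Regions and genes were named by rule: the 10 widest regions broad in all 4 untreated libraries, the longest peak of each list, the 5 strongest regions broad in both libraries of a genotype without a peak in the other, the 5 strongest regions broad in all 8 libraries, the 10 genes with the most bases under broad peaks, gene-list members with a broad start site in all 4 untreated libraries, and the DRIP-qPCR loci. Regions broad in all 4 untreated libraries without any RNH1 peak were also to be named, and there were none. Outside the rule, the 12 single-copy regions, the windows at peak ends and the limits of the sequence classes (10% and 50%) were chosen after values were seen. The members and gene lists were chosen with earlier results of these data known. Alternatives were other minimum widths, fold and q limits, joined peaks, a replicate block, other definitions of persistence and of sites, each library left out and, chosen after seeing the data, leaving out satellite word-rich peaks. The result of 1 gene list is not reported here.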

Additional observations from a re-analysis of the deposited data

Results flagged for a closer look

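Broad peaks also lay outside chromosomes 1 to 22 and X, in sequence that none of the comparisons used. They numbered 10 and 14 in the untreated WT libraries and 21 and 18 in the untreated MT libraries. With RNH1 they numbered 17 and 22 in WT and 31 and 29 in MT. They were singled out because they are signal in data left out of the comparisons. Most of them lay on unplaced or unlocalized contigs.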

How the results depend on the processing

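Of 145 alternative values, 130 kept their direction and their side of the threshold. A further 12 changed sign, of which 1 passed the threshold in the opposite direction, and 3 kept their direction and passed only under the alternative. With a minimum width of 3000 bp, the difference in the share of broad peaks was −0.00706 percentage points, the log2 ratios of RNH1-treated to untreated counts were 0.244 in WT and 0.243 in MT, the difference in persistence was −1.39 points, that in ends at restriction sites −16.1 points (exact permutation p = 0.00781, the one reversal that passed), that in summits near start sites −0.197 points and that in GC skew −0.00600 (1 library, no test). At that width the log2 MT to WT ratio of counts was 0.430 both without and with RNH1, the GC difference 1.59 points (exact permutation p = 0.0234) and the summit persistence difference 61.0 points, which was 27.2 at a minimum width of 1500 bp. The difference in ends at sites was 6.63 points at a minimum width of 1500 bp, −0.498 at a fold enrichment of at least 4, −0.825 at a −log10 q of at least 5, and 8.09 without satellite word-rich peaks. The causes were not tested. Of the satellite broad peaks, 51.3% to 61.8% were at least 3000 bp wide.

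When single libraries were left out, the log2 MT to WT ratio of counts ran from 1.06 to 1.74 without RNH1 and from 1.48 to 2.54 with it, the log2 ratio of RNH1-treated to untreated counts from −1.28 to −0.213 in WT and from −0.473 to 0.202 in MT, the difference in persistence from −0.119 to 27.3 points and that in ends at sites from 1.58 to 4.61 points. Over the same libraries left out, the GC difference ran from 2.88 to 3.10 points and the summit persistence difference from 34.1 to 39.6 points. Joining peaks within 200 bp changed no value of the 6 comparisons between groups, so those values add no separate check. The study describes paired samples with and without RNH1, but the labels do not say which libraries came from the same DNA. Deviations of same-numbered libraries correlated between −0.00189 and 0.0154, which does not settle this. A replicate block keeps mean differences by construction, so the untreated log2 ratio stayed at 1.40 (exact permutation p = 0.5, the smallest that 2 pairs allow). No call could change under it. With 2 libraries per group no genotype or RNH1 comparison can pass 0.05, and without read counts the depth of a peak is unknown.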
